A study of Solanum lycopersicum with 4 samples.

Results

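Degradome tags of tomato fruit at breaker, the onset of colour change, were compared with those at 7 days after breaker, called red ripe in the file headers. The comparison covers every cDNA listed in both libraries with a total of at least 50 TP10M (tags per 10000000 tags) in either of them. That rule took 1312 of the 5373 cDNAs in the deposited tables, out of 1386 listed in both libraries. The other 74 had lower totals. Fruits were whole fruits of Solanum lycopersicum variety Ailsa Craig, grown in a greenhouse on rockwool, with no further treatment named. Each stage had 1 library, and the series also holds libraries of mature green fruit and of fruit at 5 days after pollination. A cDNA is named by its ITAG2.3 identifier, without the version suffix, and by the annotation that the tables pair with it.

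The tags came from PARE (parallel analysis of RNA ends), which reads 5′ ends that lack a cap on RNA with a poly(A) tail. An intact mRNA carries a cap and gives no tag, whereas an mRNA cut by a microRNA or one that is decaying does. A cDNA's total therefore mixes how much mRNA was present with how fast it was broken down, and these cannot be told apart here. In whole fruit, a smaller share of a cell type and less RNA per cell also cannot be told apart. At breaker, tomato begins its burst of ethylene synthesis, and over the following days chlorophyll is lost, lycopene is made and the cell walls soften.

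A total was given only where a cDNA had a listed peak opposite a small RNA, so a dash says nothing about the number of tags. Listed cDNAs numbered 1879 at breaker and 2978 at 7 days after breaker, with 3716 and 3379 at the earlier stages. Totals of at least 50 TP10M were listed at breaker only for 320 cDNAs and at 7 days after breaker only for 1282. The largest of these was the senescence-associated protein Solyc07g006280, listed at 22467 TP10M at 7 days after breaker. No ratio was formed for such cDNAs. Depth was not given, and with 1 library per stage no difference below has a replicate check or a p-value. The ratios compare 2 libraries, not 2 conditions.

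Totals as deposited were higher at 7 days after breaker for most cDNAs: the median ratio over the 1386 listed in both libraries was 1.37-fold, or 0.45 on the log2 scale. Ratios below are log2 of the total plus 1 TP10M, less this median, and are called centred. A member was called higher or lower where the centred ratio reached 2-fold. After centring, 129 members (9.83%) were higher at 7 days after breaker and 175 (13.3%) were lower, and 1008 lay between. Without centring, 312 members (23.8%) were higher and 97 (7.39%) lower, so the balance of directions rests on the scaling. Centred ratios had a standard deviation of 0.96 over members and ran from -3.92 to 3.59. When members were split into 5 classes of equal size by the geometric mean of both totals, lower calls made up 19.0% of the lowest class, 15.2% of the highest and 8.78% of the middle one.

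**Figure D1:**
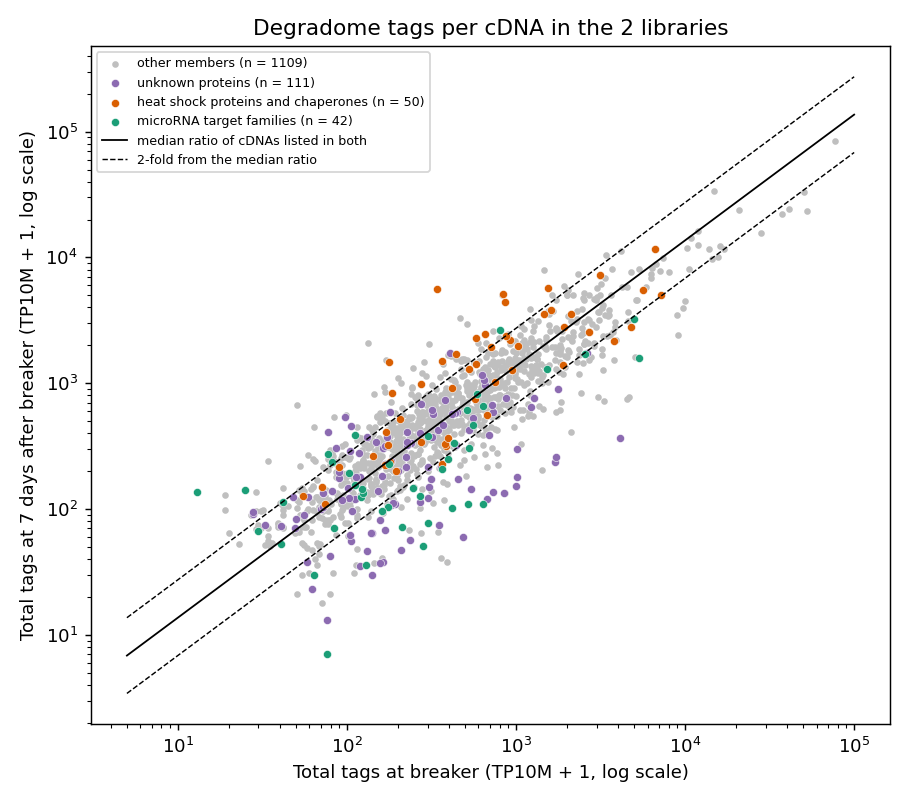
Total tags of each of the 1312 members at breaker (x axis) and 7 days after breaker (y axis), in TP10M plus 1 on log scales; each point is 1 cDNA in 1 library per stage. The solid line is the median ratio and the dashed lines lie 2-fold to either side. Chaperones lie mostly above the solid line, and most members of microRNA target families lie below it.

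The 13 members just inside the limit, with a highest total from 50 to 59 TP10M, had between 22 and 59 at breaker and between 20 and 55 at 7 days after breaker. The 11 cDNAs just outside it, at 40 to 49, had between 24 and 49 at breaker and between 35 and 49 at 7 days after breaker.

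Heat shock proteins and chaperones, which fold new or damaged proteins, had the highest median ratio of the annotation groups. Of 50 members, 11 were higher (22%, against 9.83% of all members) and 3 lower (6%, against 13.3%). Their median centred ratio was 0.57, against 0.02 over all members, and without centring it was 1.02, with 25 higher and 0 lower. Of all members, 23.8% were then higher and 7.39% lower. HSP90, an ATP-driven chaperone of signalling proteins, led the list. The HSP90 fragment Solyc06g036290 was listed at 527, 782, 340 and 5624 TP10M at 5 days after pollination, mature green, breaker and 7 days after breaker. Its last value was 12.1-fold above breaker after centring and above every earlier library, of which breaker was the lowest. A second HSP90 fragment, Solyc03g007890, was not listed at the first stage and then had 840, 842 and 5145 TP10M, a centred ratio of 2.16. The 5 members annotated as HSP90 or its bacterial counterpart htpG all lay above 0, as did 665 of all 1312 members. Of the 5, 3 were called higher (60%, against 9.83% of all members). The HSP90 with the most tags, Solyc07g065840, had 6626 at breaker and 11595 at 7 days after breaker and was not called, with a centred ratio of 0.36.

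Other parts of the folding machinery lay on the same side. ClpB, which pulls apart protein aggregates, had 245, 1298, 1554 and 5741 TP10M in stage order (Solyc03g115230), a centred ratio of 1.43. The BAG-like protein Solyc06g072430, of a family that regulates HSP70, had 28, 98, 177 and 1475, a centred ratio of 2.60. Both were listed with more tags at each later stage. The DnaK chaperone Solyc11g020040, an HSP70, had 855 at breaker and 4462 at 7 days after breaker. All 4 DnaK and HSP70-related members were above 0 and 1 was called higher (25%, against 9.83% of all members). Of 3 small heat shock proteins, which hold unfolded proteins, the class IV members Solyc11g020330 (652 and 2445) and Solyc01g102960 (441 and 1702) were called higher. That is 66.7%, against 9.83% of all members.

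Not all co-chaperones followed. Among 15 DnaJ members, which hand clients to HSP70, 1 was higher and 2 were lower, with a median of 0.45. These are 6.67% and 13.3%, against 9.83% and 13.3% of all members. The lowest chaperone was the protein disulfide isomerase Solyc06g005940, an enzyme of the endoplasmic reticulum, at 3775 and 2171 TP10M, a centred ratio of -1.25. The 4 peptidyl-prolyl isomerases had no call, and their median of -0.31 was above 0 (0.14) without centring.

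Clp protease subunits, which form the main plastid protease, and ribosomal proteins gave few calls. All 8 Clp subunits had centred ratios above 0, as did 665 of all 1312 members, and 2 were called higher (25%, against 9.83% of all members). The proteolytic subunit Solyc02g091280 had 409 TP10M at breaker and 1639 at 7 days after breaker. Among 17 ribosomal proteins annotated 30S, 50S or mitochondrial, 4 were higher (23.5%, against 9.83% of all members) and 0 lower, 6 lay below 0, and the median was 0.47. The 25 annotated 40S or 60S, the parts of the cytosolic ribosome, had 0 higher and 2 lower, with a median of 0.04. The 30S protein Solyc10g006030 had 155 and 556 TP10M, whereas the 40S protein Solyc12g096540 had 1450 and 627. The difference between the ribosomal lists was not tested. These lists and that of the Clp subunits were formed after the values had been seen.

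**Figure D2:**
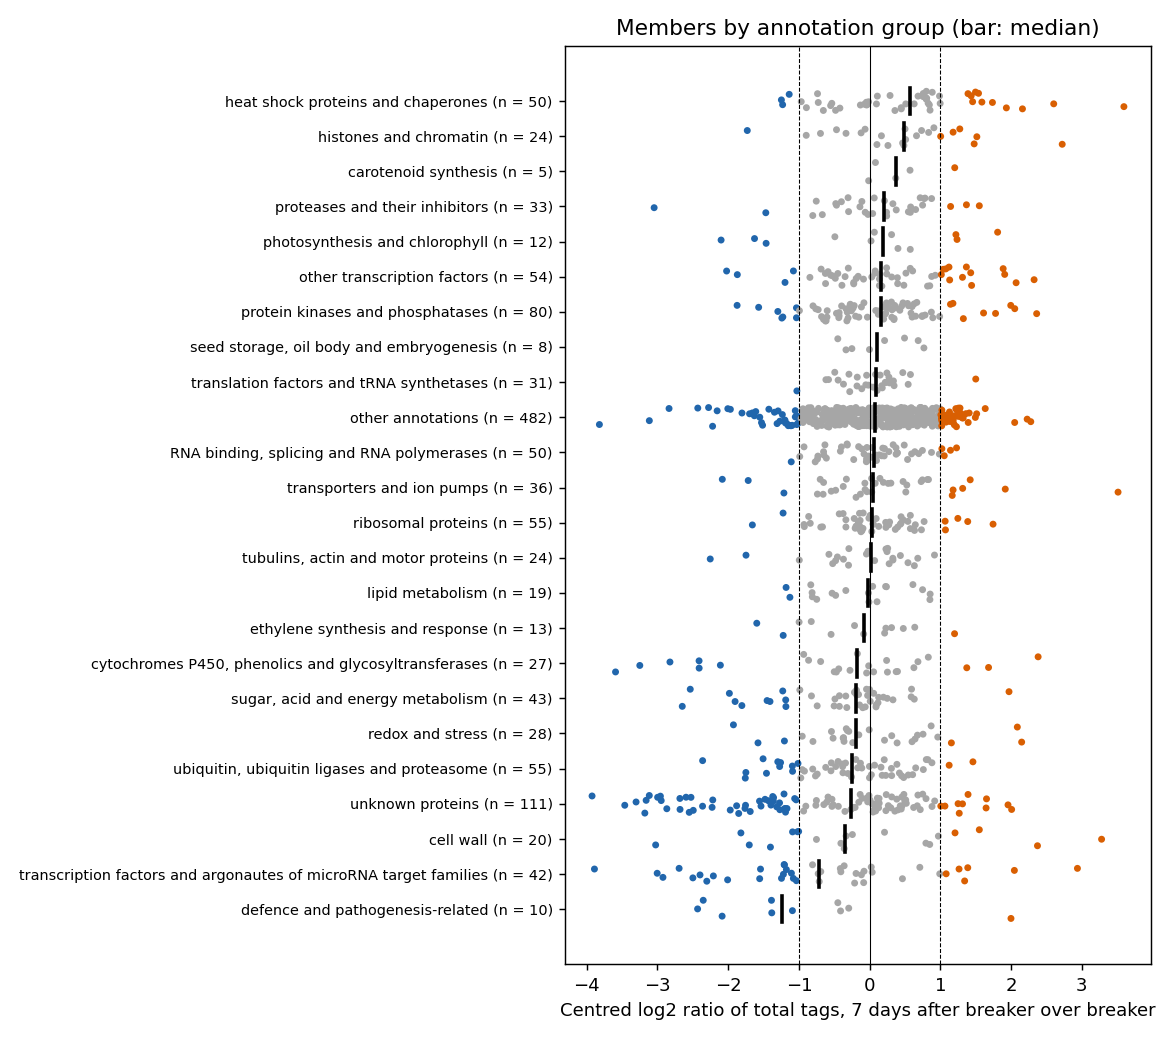
Centred log2 ratio of total tags (x axis) for each of the 1312 members, by annotation group (y axis, with the number of members); bars are group medians, orange points at least 2-fold higher and blue points at least 2-fold lower. Chaperones have the highest median (0.57), and defence proteins (-1.24) and the microRNA target families (-0.72) the lowest.

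Regulators of families known as microRNA targets in plants lay on the opposite side. MicroRNAs guide ARGONAUTE proteins to cut complementary mRNAs, and the cut leaves an uncapped fragment that PARE reads well. Of 42 members in these families, 19 were lower (45.2%, against 13.3%) and 6 higher (14.3%, against 9.83%). Their median was -0.72, and -0.27 without centring, where 11 were lower and 8 higher. Of all members, 7.39% were then lower and 23.8% higher. As an alternative, tags at the site were left out for the 22 members with a prominent predicted cut site, as defined below. The other 20 kept their full totals. By this count 12 of the 42 were lower and 7 higher, with a median of -0.39. All 3 AP2-like factors, relatives of APETALA2 and targets of miR172, were lower. The one with the most tags, Solyc03g044300, had 267, 364, 5359 and 1582 TP10M in stage order, and its breaker total exceeded each of the others at least 3.39-fold. Its centred ratio at 7 days after breaker was -2.21, a 4.63-fold lower level. The other AP2-like members had 300 and 77 (Solyc02g064960) and 211 and 71 (Solyc02g093150).

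Auxin response factors control genes that answer to auxin. They were lower in 5 of 7 cases (71.4%, against 13.3% of all members) and higher in 1. Without centring they were lower in 2 and higher in 1. ARF 3 (Solyc09g007810) had 112, 184, 639 and 108 TP10M, again with the peak at breaker, and a centred ratio of -3.00. ARF 16 had 282 and 50 for Solyc06g075150, and 524 and 307 for Solyc11g069500. ARF 17 (Solyc11g013470) had 244 and 147. ARF 2 (Solyc03g118290), with far more tags, had 5008 and 3239, just past the 2-fold call at -1.08. The exceptions were the ARF 8 copies: Solyc02g037530 had 81 and 236 and was called higher, and Solyc03g031970 had 586 and 821 and was not called.

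Class III homeodomain-leucine zipper factors set the polarity of organs and are targets of miR165 and miR166. They were lower in 3 of 5 cases (60%, against 13.3% of all members) and higher in 0. Without centring 2 were lower. Solyc08g066500 had 129 and 35 TP10M, Solyc11g069470 had 270 and 125, and Solyc03g120910 had 362 and 208. The other members, Solyc12g044410 (299 and 377) and Solyc02g069830 (176 and 227), had centred ratios of -0.12 and -0.09 and were above 0 without centring. GRAS factors split: Solyc08g078800 (520 and 109) and Solyc01g090950 (417 and 100) were lower, whereas Solyc12g005340 (76 and 274) and Solyc04g064550 (111 and 387) were higher. The fifth, Solyc05g053090, had 120 and 123. Only the lower pair among these 5 had a prominent site under miR171.

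Growth-regulating factors, targets of miR396 that act in dividing tissue, ranged from the second lowest ratio of all members to one just short of a call. Growth-regulating factor 2 (Solyc10g083510) had 184, 61, 75 and 6 TP10M and a centred ratio of -3.89, which became -3.30 with a pseudocount of 5. Growth-regulating factor 5 (Solyc12g096070) had 427 and 333, and growth-regulating factor 3 (Solyc08g075950) had 41 and 113. SBP-box factors, a family that includes the ripening regulator CNR, were lower in 2 of 5 cases (40%, against 13.3% of all members). They were higher in 0, and without centring 1 was lower and 1 higher. Solyc02g077920 had 38, 829, 2549 and 1698 in stage order, a centred ratio of -1.04, and Solyc04g045560 had 63 and 29. The other SBP-box members were not called: Solyc05g015510 had 633 and 652, Solyc05g012040 had 102 and 193, and Solyc03g114850 had 29 and 66.

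NAC factors, which include regulators of ripening and senescence, split as well. Solyc06g069710 had 12 TP10M at breaker and 135 at 7 days after breaker, a centred ratio of 2.94, but 407 and 284 at the earlier stages. Solyc04g079940 was lower with 393 and 249, and Solyc07g063420 (559 and 461) and Solyc10g055760 (122 and 144) were not called. Among NF-YA subunits, targets of miR169, Solyc01g006930 was lower with 175 and 103. Solyc01g087240 (124 and 132), Solyc08g062210 (511 and 611) and Solyc01g008490 (110 and 153) were not called. Of 3 MYB factors, Solyc01g079620 was lower (161 and 95), and Solyc01g009070 (83 and 69) and Solyc06g073640 (40 and 52) were not called. Of 3 cDNAs annotated as ARGONAUTE 1, a protein that carries the microRNA, 2 were higher (66.7%, against 9.83% of all members). The annotation was taken as given, and which ARGONAUTE each of them encodes was not checked. Solyc02g069260 had 807 and 2649 and Solyc02g069280 had 24 and 140. Solyc06g072300 had 1520 and 1286, a centred ratio of -0.69, and was not called.

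Tags at the predicted cut site were then set against tags elsewhere on the same cDNA. A prominent site was one opposite position 10 of the small RNA, where slicing is known to fall, with CleaveLand category 0 or 1 (the highest position of the cDNA, alone or shared) in either library. Such a site was found on 33 members, 22 of them in the microRNA target families. Of the 33, 15 were lower (45.5%) and 2 higher, with a median of -0.81. Of the 1279 members without one, 160 were lower (12.5%), with a median of 0.03. The 15 lower members held 12 distinct site values, since some share tags. Site tags were at least 2-fold lower in 12 of the 15. In the others, LRR receptor-like proteins with a shared miR6022 site, they were higher, at a centred ratio of 1.33. Without centring, 9 of the 33 were lower and 4 higher, against 88 lower and 308 higher of the 1279. Within the families, 11 of 22 members with a prominent site were lower and 2 higher, and 8 of 20 without one were lower and 4 higher. Without centring these counts were 8 lower and 3 higher with a site, and 3 lower and 5 higher without one, so the direction of the latter turned. In 31 members the site was listed in both libraries. The median share of a cDNA's tags at it was 17.4% at breaker and 9.62% at 7 days after breaker.

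Sites with at least 50 TP10M numbered 17, of which 16 lay in the families and the other in a DNA methyltransferase. All 17 reached 50 TP10M at breaker and 5 did so at 7 days after breaker, so the height that selected them was that of the breaker library, and the direction below is in part set by this choice. The share of the cDNA's tags at the site was lower at 7 days after breaker in all 17. Site tags were at least 2-fold lower after centring in 15 of 17 and without centring in 13. Tags elsewhere on the same cDNAs were at least 2-fold lower in 4. The median centred ratio was -2.96 at the site and -0.41 elsewhere. Members share some of these tags: 13 of the 17 sites had values that no other of the 17 had, and the other 4 formed pairs with equal values.

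ARF 16 Solyc06g075150 showed the clearest split. Its miR160 site, at position 1502 of the cDNA, had 248 TP10M at breaker and 14 at 7 days after breaker, whereas the rest of the cDNA had 34 and 36. The GRAS factor Solyc08g078800 had 433 and 32 at its miR171 site (position 404) and 87 and 77 elsewhere. ARF 17 Solyc11g013470 had 206 and 51 at its miR160 site and 38 and 96 elsewhere. In these 3 cDNAs the site tags were past 2-fold and those elsewhere were not.

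The AP2-like factor Solyc03g044300 differed from them in that both parts were lower. Its miR172 site, at position 1384, held 3353 TP10M at breaker, 62.6% of the total, and later 465, or 29.4%, and the rest went from 2006 to 1117. The SBP-box factor Solyc02g077920 had 431 and 221 at its miR156 and miR157 site and 2118 and 1477 elsewhere, centred ratios of -1.41 and -0.97. The DNA methyltransferase Solyc02g062740, an enzyme that puts methyl groups on DNA, had a site listed under miR396 with 142 and 14, against 116 and 175 elsewhere.

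Solyc02g069260, annotated as ARGONAUTE 1, alone among the 17 had tags elsewhere past 2-fold upward, and its site did not follow. Tags at its miR403 site were 168 and 229, a centred ratio of -0.01, and those elsewhere were 639 and 2420, a centred ratio of 1.47. Several members carried the same site tags. The class III factors Solyc08g066500 and Solyc12g044410 both had 119 and 20, and the AP2-like Solyc02g064960 and Solyc02g093150 both had 109 and 23. These tags cannot be assigned to 1 copy. In Solyc12g044410 the tags elsewhere went from 180 to 357, against 10 and 15 in Solyc08g066500.

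Below 50 TP10M the picture was mixed, and the site's share was higher at 7 days after breaker in 9 of 14 members. Each of these 9 counted as prominent through the library of 7 days after breaker alone. Their direction is thus in part set by the choice of sites. LRR receptor-like proteins, of a class known for pathogen recognition, were among the 9. Solyc01g005760, Solyc01g005870 and Solyc01g005720 shared a miR6022 site with 8 TP10M at breaker and 30 at 7 days after breaker, while their totals were lower (1060 and 612, 191 and 111, 299 and 199). Over all members, the highest listed peak held a median of 0.0127% of the tags at breaker and 0.210% at 7 days after breaker, so that for most cDNAs the total says little about microRNA sites.

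**Figure D3:**
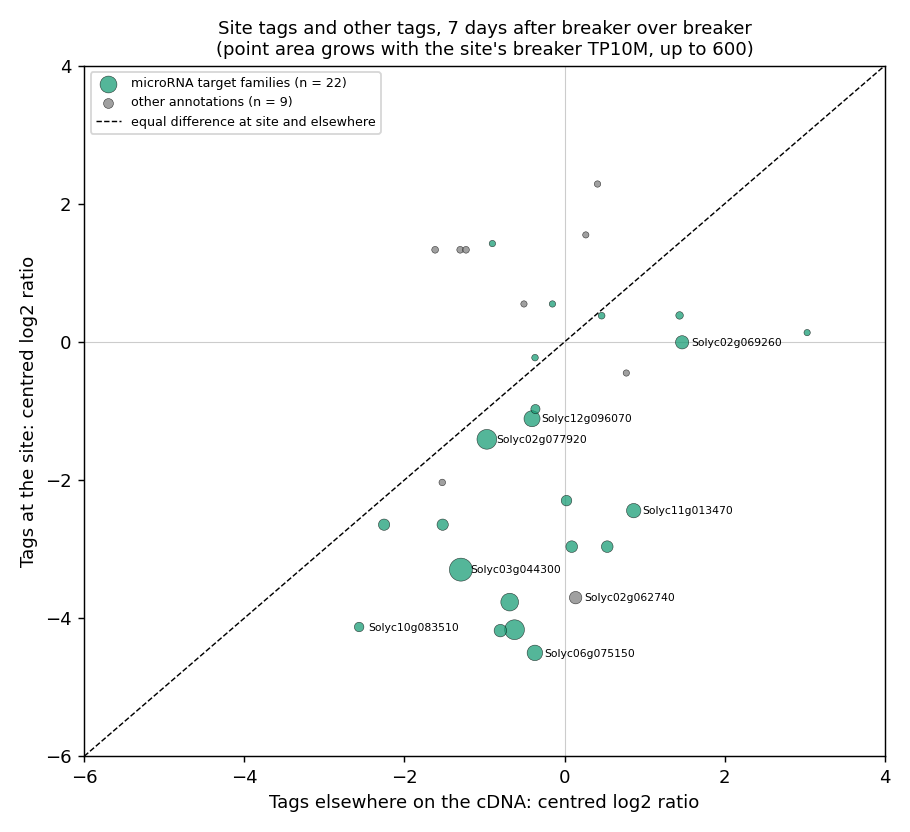
Centred log2 ratio (7 days after breaker over breaker) of tags at the site (y axis) and elsewhere on the cDNA (x axis) for the 31 members with a prominent site listed in both libraries; point area grows with the site's breaker level and the dashed line marks equal ratios. The larger points lie below the line, and the smallest lie on both sides. The breaker level that sets the area is also the denominator of the y axis, so this pattern is in part built in.

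Ethylene genes were called at the oxidation step alone. ACC synthase makes the ethylene precursor ACC, and ACC oxidase turns it into ethylene. Of 13 members, 1 was higher and 2 lower (7.69% and 15.4%, near the shares of all members), and the median of -0.09 was 0.37 without centring. The ACC oxidase Solyc07g049530 had 553, 1374, 16973 and 11612 TP10M in stage order, a centred ratio just short of a call. Solyc07g049550 had 422, 474, 9934 and 4489 and was lower, as was Solyc04g007980 with 1169 and 684. Solyc01g108880 went the other way, from 490 to 1540. The copies Solyc07g049530 and Solyc07g049550 had the same highest listed peak (12 and 18), so part of their tags may be shared.

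The ACC synthase Solyc01g095080 had 2967 and 2777 TP10M. The ethylene receptor Solyc09g075440 had 472, 928, 3143 and 5033, and the ethylene response factor Solyc09g075420 had 558, 859, 3018 and 5733. Neither was called between the last 2 stages, and both had more tags at each later stage. A further receptor, Solyc06g053710, was listed at 4224 TP10M at 7 days after breaker but not at breaker.

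**Figure D4:**
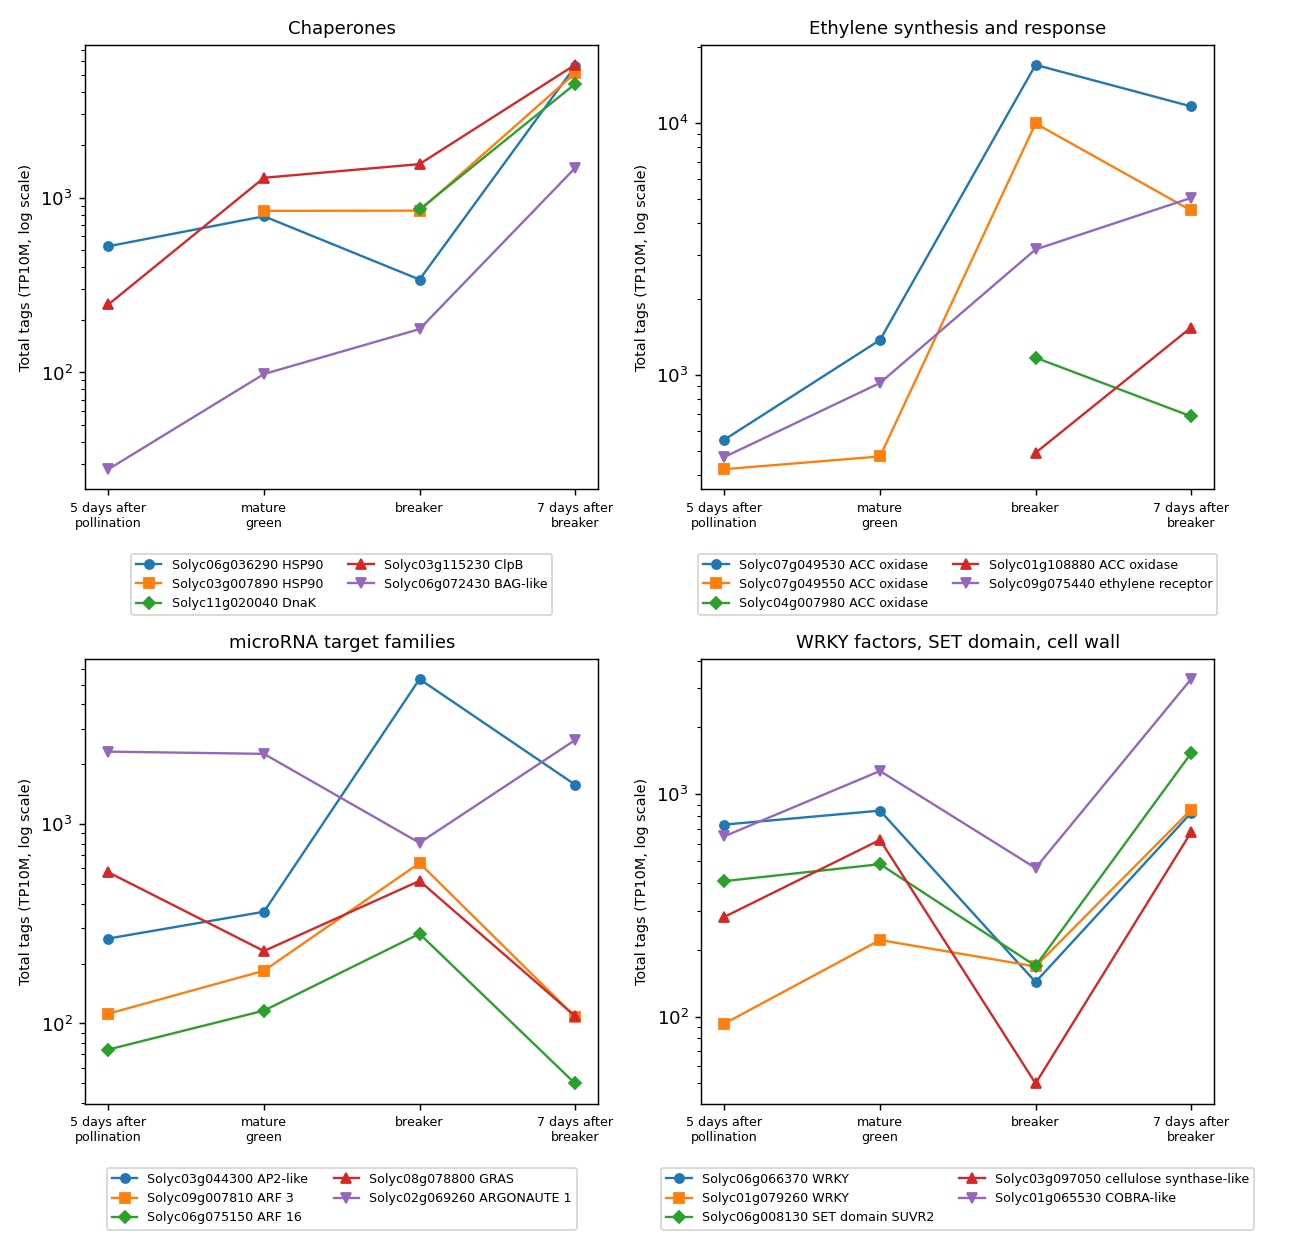
Total tags (y axis, TP10M, log scale) at the 4 stages (x axis) for selected members of 4 kinds; each point is 1 library, and a missing point was not listed. Chaperones are highest at 7 days after breaker, the ACC oxidases Solyc07g049530 and Solyc07g049550 and the AP2-like and ARF cDNAs at breaker, and the WRKY and wall genes shown have a low point or a plateau at breaker.

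Carotenoid genes, which make the red lycopene, had 5 members, of which 1 was higher (20%, against 9.83% of all members) and 0 lower. The plastid terminal oxidase Solyc11g011990, needed for desaturation of phytoene, had 83, 180, 381 and 1200 TP10M, a centred ratio of 1.20. Zeta-carotene isomerase (Solyc12g098710) had 3382 and 6862, phytoene desaturase (Solyc03g123760) had 444 and 784, carotenoid isomerase (Solyc10g081650) had 1142 and 1545, and a beta-carotene hydroxylase (Solyc03g007960) had 257 and 372. None of these was called, and only the carotenoid isomerase lay below 0, at -0.01.

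Cell wall members moved in both directions. Of 20, 4 were higher (20%, against 9.83% of all members) and 7 lower (35%, against 13.3%). The cellulose synthase-like protein Solyc03g097050 had 281, 624, 50 and 675 TP10M, and its centred ratio of 3.28 came from a low breaker value. The COBRA-like protein Solyc01g065530, of a family that acts in cellulose deposition, had 648, 1274, 466 and 3302, above every earlier library. At the other end, a hydroxyproline-rich glycoprotein (Solyc02g091700) had 4648 and 779, and the beta-galactosidase Solyc12g008840 had 1837 and 710. Pectate lyase (Solyc03g111690), which cuts pectin as fruit softens, was not listed at the first stage, then had 2352, 20831 and 24025, and was not called. Without centring the balance turned, with 7 higher and 3 lower, and the group median of -0.35 was 0.10. Over all members, 23.8% were then higher and 7.39% lower.

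Sugar and energy metabolism had 10 of 43 lower (23.3%, against 13.3% of all members) and 1 higher (2.33%, against 9.83%). Without centring 6 were lower and 4 higher, where 7.39% of all members were lower and 23.8% higher. The median of -0.19 was then 0.26. Both enolases of glycolysis were lower: Solyc09g009020 had 9000 and 3514 TP10M and Solyc10g085550 had 639 and 319. The short chain alcohol dehydrogenase Solyc12g056600 had 3296 and 717, and glutamate decarboxylase Solyc11g011920, which consumes glutamate to make GABA, had 275 and 64. Malic enzyme (Solyc12g008430), which turns malate into pyruvate, was the one called higher, from 244 to 1310.

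Ubiquitin genes, which supply the tag for protein breakdown, were lower in 4 of 5 cases (80%, against 13.3% of all members). Without centring 2 were lower. All 5 lay below 0 after centring. The one with the most tags, Solyc07g064130, had 13639, 10374, 28044 and 15572 TP10M, highest at breaker. Of 9 F-box proteins, which choose the targets for ubiquitin, 4 were lower (44.4%, against 13.3% of all members) and 0 higher. Without centring this became 1 lower and 2 higher. Of 8 proteasome subunits 0 were called, and their median was 0.11. Over all 55 members of the ubiquitin system, 11 were lower (20%, against 13.3%) and 2 higher (3.64%, against 9.83%), with a median of -0.26. Without centring the balance turned, with 5 lower and 8 higher and a median of 0.19, where 7.39% of all members were lower and 23.8% higher.

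Defence proteins were lower in 6 of 10 cases (60%, against 13.3% of all members) and higher in 1 (10%, against 9.83%), with a median of -1.24. Without centring 3 were lower and 1 higher, where 7.39% of all members were lower and 23.8% higher. The median was then -0.79. Osmotin-like Solyc08g080670 had 161 and 40 TP10M, the defensin Solyc07g007760 had 9100 and 2433, and the agglutinin Solyc03g116230, a chitin-binding lectin, had 15662 and 10037. Chitinase-like Solyc09g098540 had already been far higher at mature green, with 27817, than at breaker (3216) or 7 days after breaker (1683). The major latex-like protein Solyc00g060810 was the one called higher, from 1465 to 7996.

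Enzymes of phenolic synthesis held 2 of the 12 lowest ratios. Prephenate dehydratase, on the route to phenylalanine, had 361 and 40 TP10M for Solyc06g074530 and 1426 and 204 for Solyc11g066890. The first had about as many tags at the earlier stages (332 and 357), and the second had 197 and 95 there and so was high at breaker only. Anthocyanidin synthase (Solyc11g013110) had 3037 and 779. A cytochrome P450 (Solyc08g075320) had 33 and 241 and was among the 12 highest ratios. Of the 27 members of this group, 6 were lower (22.2%, against 13.3% of all members) and 3 higher (11.1%, against 9.83%), with a median of -0.17. Without centring 6 were lower and 6 higher, where 7.39% of all members were lower and 23.8% higher. The median was then 0.28.

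Transcription factors outside the microRNA target families were higher in 13 of 54 cases (24.1%, against 9.83% of all members). They were lower in 4 (7.41%, against 13.3%). Without centring 19 were higher and 2 lower, where 23.8% of all members were higher and 7.39% lower. All 3 WRKY factors, a plant family tied to stress and senescence, were higher. Solyc06g066370 had 731, 845, 143 and 825 TP10M, Solyc01g079260 had 93, 221, 168 and 853, and Solyc03g116890 had 78 and 292 at the last 2 stages. Solyc06g066370 was thus back at its level of green fruit, whereas Solyc01g079260 was above every earlier library. The auxin responsive protein Solyc01g097290 had 1266, 129, 18 and 129. Lowest was the homeodomain factor Solyc01g100760, at 1813 and 609.

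Chromatin proteins were higher in 6 of 24 cases (25%, against 9.83% of all members) and lower in 1 (4.17%, against 13.3%), with a median of 0.49. Without centring 10 were higher and 1 lower, where 23.8% of all members were higher and 7.39% lower. The SET domain protein SUVR2 (Solyc06g008130), of a family of histone methyltransferases, had 407, 485, 169 and 1531 TP10M. An H1 histone-like protein (Solyc02g084240), which binds the DNA between nucleosomes, had 1741, 2224, 2017 and 5526. The high mobility group protein Solyc02g082700 had 4552, 1037, 370 and 1410, so that its call reflects a low breaker value more than a high later one. The PHD finger protein Solyc03g121930 was lower, at 50 and 20.

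Kinases and phosphatases had 8 of 80 members higher (10%) and 7 lower (8.75%), close to the shares of all members. Protein phosphatases 2C, negative regulators of abscisic acid signalling among others, were higher in 3 of 7 cases (42.9%, against 9.83% of all members). Solyc01g107310 had 63 and 448 TP10M and Solyc10g049630 had 273, 547, 164 and 933. LRR receptor-like proteins annotated RLP went the other way, with 4 of 6 lower (66.7%, against 13.3% of all members) and 0 higher. Their median was -1.13, and 1 was lower without centring. Among transporters the calcium-transporting ATPase Solyc02g064680 had the second highest ratio of all members, with 4369, 3404, 133 and 2086. Its centred ratio of 3.51 came from a breaker value far below the other 3 libraries. The sucrose transporter Solyc11g017010 had 669 and 215.

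Single members with many tags included water-stress inducible protein 3 (Solyc04g071610), with 227, 56037, 76598 and 84078 TP10M and a centred ratio of -0.32. Vacuolar processing enzyme (Solyc08g065610), a protease that matures vacuolar proteins, had 700, 5662, 14804 and 33970. Adenosylhomocysteinase (Solyc09g092380), which clears the by-product of methylation, had 4785, 5262, 50419 and 33237. Methionine sulfoxide reductase (Solyc03g111720), which repairs oxidised methionine, had 52424 and 23458, and 321 at mature green. The translationally controlled tumor protein homolog Solyc01g099770 had 41069 and 24463, and the metallothionein Solyc09g010800, which binds metals, 37324 and 22114. The last 4 were lower after centring, and of these only the methionine sulfoxide reductase was 2-fold lower without it.

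Other low ratios were those of cold shock protein-1 (Solyc01g111280, 392 and 37 TP10M), an aluminum-induced protein (Solyc02g078380, 855 and 134) and the aspartic proteinase Solyc01g096040 (4542 and 750). Other high ratios were those of a GPI-anchored protein (Solyc07g066100, 307 and 2039) and the GRAM domain protein Solyc08g078510 (823 and 4990). Digalactosyldiacylglycerol synthase 2 (Solyc01g094170), which makes a lipid of plastid membranes, had 83 and 536. In the remaining groups, translation factors had 1 of 31 members higher and 1 lower (3.23% each). RNA-binding and splicing proteins had 4 of 50 higher (8%) and 1 lower (2%). Tubulins and other cytoskeleton proteins had 0 of 24 higher and 2 lower (8.33%), and lipid enzymes 0 of 19 higher and 2 lower (10.5%). Over all members the shares were 9.83% higher and 13.3% lower.

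Unknown proteins made up 111 members, of which 43 were lower (38.7%, against 13.3% of all members) and 10 higher (9.01%, against 9.83%). Without centring 28 were lower and 18 higher, where 7.39% of all members were lower and 23.8% higher. The median of -0.27 was then 0.18. The lowest ratio of all members was that of Solyc02g080510, annotated only by a genomic clone, with 446, 899, 4100 and 368 TP10M. Many of the lower ones had a breaker value above all other libraries. Of the 996 members listed at all 4 stages, 23 had a breaker total at least 2.5 times that of every other library, and 16 of these were unknown proteins. That is 19.5% of the 82 unknown proteins listed at all stages, against 0.766% of the other 914 members. Breaker totals of the 16 exceeded those at 7 days after breaker 2.65-fold to 11.1-fold. A ratio of at least 2.5 follows from the choice of the set. Solyc12g062300, for example, had 299, 216, 1696 and 234 and Solyc03g053030 had 410, 261, 1722 and 259. Among the 16, 10 shared site values with another of them under miR414, so they are not independent. Without the set, 27 of 95 unknown proteins were lower.

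**Figure D5:**
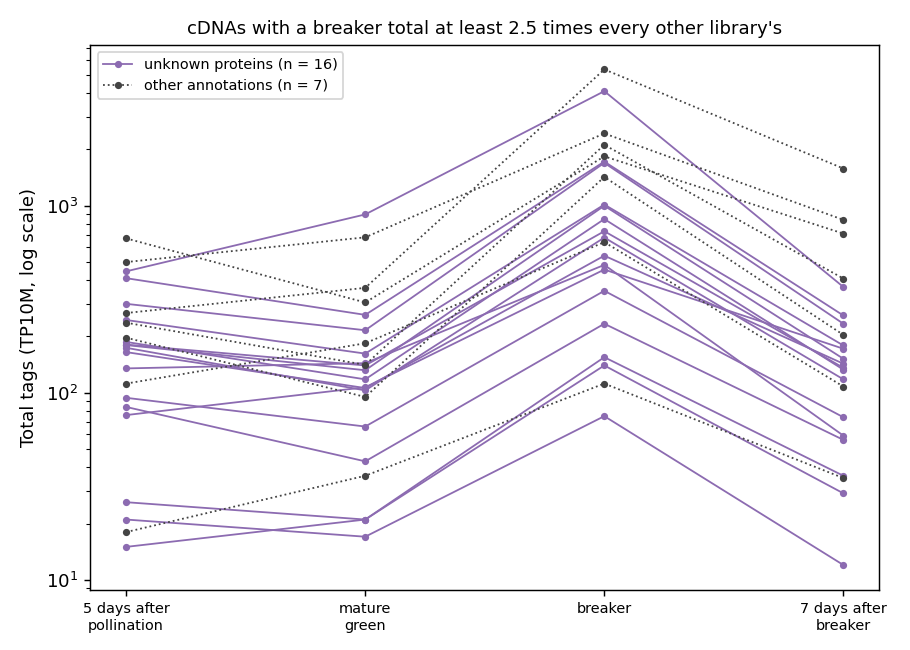
Total tags (y axis, TP10M, log scale) at the 4 stages (x axis) for the 23 members whose breaker total was at least 2.5 times that of every other library; each line is 1 cDNA with 1 library per stage. The 16 unknown proteins are solid lines, and the 7 other members (dotted) include the AP2-like Solyc03g044300 and ARF 3. The peak at breaker shared by all lines follows from the choice of the set.

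The calls were set beside the earlier libraries. Because the breaker total enters each call, breaker cannot be the highest library of a member called higher. Nor can it be the lowest of a member called lower. The counts for called members below are thus partly built in, and do not measure how far the calls depend on breaker. Of the 996 members, 488 had their lowest deposited total at breaker, and 263 did so after scaling by size factors. Breaker was the highest library in 138 of the 996 (289 with size factors). The library of 7 days after breaker was the highest in 306 (225 with size factors) and the lowest in 137 (225 with size factors). Among the 91 members called higher, breaker was the lowest of the 4 libraries in 70 (59 with size factors) and 7 days after breaker the highest in 58 with either scaling. Of the 140 called lower, breaker was the highest in 77 (93 with size factors) and 7 days after breaker the lowest in 78 (77 with size factors).

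Seeds and green tissue in the fruit were followed by markers. Of 20 cDNAs with seed storage, oil body or late embryogenesis annotations, 9 were listed at breaker and 17 at 7 days after breaker. The 8 of them that were members summed to 6945 and 10305 TP10M, and none was called higher or lower, with centred ratios from -0.45 to 0.77. Legumin Solyc09g072560 had 58849 TP10M in mature green fruit, then 641 and 1014. Photosynthetic markers numbered 16, of which 11 were listed at breaker and 7 at 7 days after breaker, and the 7 members summed to 3325 and 5152. Of these, 2 were lower: the photosystem Q(B) protein Solyc11g056500 (112 and 35) and photosystem I subunit V Solyc07g066150 (209 and 103). The other 5 were not called. The wider annotation group of photosynthesis and chlorophyll had 12 members, 3 higher and 3 lower, with a median of 0.19. These are 25% each, against 9.83% and 13.3% of all members. The higher members of this group were oxygen-evolving enhancer protein 2 (Solyc07g044860, 1202 and 3867), which the marker words do not cover, uroporphyrinogen decarboxylase of the chlorophyll route (Solyc06g048730, 209 and 1004) and a ribulose-5-phosphate epimerase (Solyc03g115820, 354 and 1128). The part of seeds or green tissue in the differences above was not tested.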

How the data were processed

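PARE libraries of tomato fruit were deposited as 3 tables of CleaveLand peaks on ITAG2.3 cDNAs, per the file headers, for small RNA positions 9, 10 and 11. Tag values are scores in TP10M, deposited as whole numbers rounded by the authors, and not reads. No aligner is named and no library depth is given in the sources used here. CASAVA 1.8.0 is named in the submitters' processing notes. Categories were deposited as numbers, per the file headers.

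The tables were pooled and each cDNA kept its highest total per library, with a dash taken as not listed. Totals agreed over the entries of each cDNA. A pseudocount of 1 TP10M was added, which understates differences of low values. Calls needed 2-fold after centring. The code was tested on simulated data (pandas 2.3.3, numpy 2.4.6).

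Each member was put in the first of 23 annotation groups whose words its annotation held. Named genes were the 12 largest ratios in each direction, the extremes and the highest total of each group, all members of microRNA target families and the 5 highest totals per library. Further genes, smaller lists, the limit of 2.5 times and the limit on site tags were chosen after their values were seen. Members and lists were chosen with earlier results of these data known. Alternatives were 11 planned settings and 2 chosen after seeing the data. No set test was run. Sequences were not used here.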

Additional observations from a re-analysis of the deposited data

How the results depend on the processing

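No paired analysis was possible because each stage had 1 library. Without centring, members called higher became 312 and lower 97. Lower calls then numbered 11 in the microRNA target families, 28 among unknown proteins, 5 in the ubiquitin system and 6 in sugar and energy metabolism, and chaperones called higher 25. With the position 10 table alone, 628 members gave 66 higher (10.5%) and 87 lower (13.9%), with 6 chaperones higher and 22 unknown, 6 ubiquitin system and 5 sugar and energy members lower. A 4-fold call gave 20 higher and 54 lower, with 3 chaperones higher and 9 microRNA target family, 19 unknown, 1 ubiquitin system and 2 sugar and energy members lower. Other alternatives were chosen after seeing the data. In them, microRNA target families had 12 lower with tags at a prominent site left out for members that had one. Unknown proteins had 27 lower without the set high at breaker. Counts of these kinds stayed within 1.5 times under both pseudocounts, both other centrings and the 3 other limits on totals. No members had identical totals in all libraries. Of the 122 genes named by the rule, 86 were called, and 25 had another call without centring, 43 at 4-fold and at most 3 under each other planned setting, without any called ratio changing sign. Rounded scores of unknown depth limit low values most.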
